A study of Mus musculus with 23 samples.

Results

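The genes described here are 46 germline and meiosis genes, read as windows at their transcription start in both deposited tables. They were chosen by gene symbol from a list of genes that act in germ cells and early embryos, and all 46 were found among the 41388 windows of each table. In both tissues 44 of them had enough reads to be tested, while Smc1b and Piwil2 had almost none.

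The measurement was captured methylated DNA. Male C57Bl/6 mice, housed singly, gave DNA of 2 tissues, spleen and heart, the heart being sampled at its left ventricle. Methylated fragments were pulled down with MethylMiner, a kit built on a methyl-CpG binding protein, and reads were counted in 3 kb windows. The heart groups were mice on a diet high in resistant starch (high fibre, n = 4), mice given 100 mM magnesium acetate in the drinking water (acetate, n = 3) and mice on a control diet that lacked resistant starch (control, n = 4). The spleen groups were the same diets with n = 4 each. Diets began 3 weeks before surgery to implant a minipump, whose content is not stated, and were kept until the experiment ended. It is not stated that every library came from its own mouse, so a p-value here reflects the spread of libraries within a group, which may be technical. No unenriched input was used here, so a count compares libraries and is no methylation level. In bulk tissue a different mix of cells and a different methylation per cell cannot be told apart.

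Germ cells build eggs and sperm with proteins that body cells do not use. Synaptonemal complex proteins zip paired chromosomes together in meiosis, recombination proteins cut and repair their DNA, and the piRNA pathway silences transposons with small RNAs bound by Piwi proteins. In body tissues a set of these genes is kept off by DNA methylation that is laid down on their CpG-rich promoters around implantation, and their start sites are textbook examples of methylated CpG-rich promoters. A repressor complex holding Mga, Max, E2f6 and L3mbtl2 also sits on many of them; Mga and Max bind the E-box CACGTG and E2f6 binds sites with GCGGGA.

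The starts of 6 of these genes are printed as examples from the comparisons below. Sycp3 and Tex19.1 were called lower in heart with high fibre, though not in every alternative fit. Dazl, Ddx4 and Mael were lower in heart than in spleen, and Nanos3 was higher in heart. Each sequence is the 250 bases before the first listed RefSeq start, on build GRCm38.p6, 5′ to 3′ on the gene's strand, with every CpG in capitals. That of Ddx4 lies inside the gene's listed span, which reaches 112652633. Sycp3 lies on the plus strand at chr10:88459337-88459586, Tex19.1 on the plus strand at chr11:121145893-121146142, Dazl on the minus strand at chr17:50293621-50293870, Ddx4 on the minus strand at chr13:112652311-112652560, Mael on the minus strand at chr1:166238745-166238994, and Nanos3 on the minus strand at chr8:84176553-84176802.
Sycp3: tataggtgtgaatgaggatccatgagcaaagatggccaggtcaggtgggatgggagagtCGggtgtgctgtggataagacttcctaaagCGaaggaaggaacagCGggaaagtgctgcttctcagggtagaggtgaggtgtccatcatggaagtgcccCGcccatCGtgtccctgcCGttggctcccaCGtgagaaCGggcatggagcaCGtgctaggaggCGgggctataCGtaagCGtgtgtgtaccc
Tex19.1: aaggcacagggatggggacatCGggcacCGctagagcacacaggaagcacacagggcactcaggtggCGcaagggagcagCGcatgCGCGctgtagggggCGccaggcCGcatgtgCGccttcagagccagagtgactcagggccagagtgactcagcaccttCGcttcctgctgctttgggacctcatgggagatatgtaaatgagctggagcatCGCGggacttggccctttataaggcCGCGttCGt
Dazl: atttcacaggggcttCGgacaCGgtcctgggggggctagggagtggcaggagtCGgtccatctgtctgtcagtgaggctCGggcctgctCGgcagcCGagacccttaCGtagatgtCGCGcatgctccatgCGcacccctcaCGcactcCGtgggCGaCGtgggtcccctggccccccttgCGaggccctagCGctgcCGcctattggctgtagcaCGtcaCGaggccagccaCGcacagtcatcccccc
Ddx4: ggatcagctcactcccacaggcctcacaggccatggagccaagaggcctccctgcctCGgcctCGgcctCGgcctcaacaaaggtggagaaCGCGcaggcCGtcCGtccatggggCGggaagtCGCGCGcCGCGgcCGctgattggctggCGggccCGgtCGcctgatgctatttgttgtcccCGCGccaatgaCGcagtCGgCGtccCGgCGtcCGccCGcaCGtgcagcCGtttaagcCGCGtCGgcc
Mael: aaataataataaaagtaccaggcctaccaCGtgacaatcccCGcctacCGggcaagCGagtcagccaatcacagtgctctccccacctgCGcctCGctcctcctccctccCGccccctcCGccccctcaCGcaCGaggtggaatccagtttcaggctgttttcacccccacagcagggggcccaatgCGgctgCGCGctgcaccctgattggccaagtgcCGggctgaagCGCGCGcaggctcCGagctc
Nanos3: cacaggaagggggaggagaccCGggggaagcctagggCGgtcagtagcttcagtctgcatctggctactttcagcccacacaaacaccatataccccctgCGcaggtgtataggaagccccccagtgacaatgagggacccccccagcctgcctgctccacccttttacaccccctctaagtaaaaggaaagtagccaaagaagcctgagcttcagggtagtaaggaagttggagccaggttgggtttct
The stretch before Ddx4 held 31 CpG, that of Dazl 20, Mael 18, Tex19.1 15, Sycp3 12 and Nanos3 3.

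The promoters as a set were rich in CpG. RefSeq promoters, running from 250 bases before to 50 bases after the start, were at hand for 38 of the 46 genes. The first listed promoter of a gene was used, and some lie inside the gene's listed span. That of Mei1 is at 82082226 to 82082525 on chromosome 15, where the gene begins at 82070074. The 3 kb window of such a gene may not hold that promoter. Their median was 16.5 CpG in 300 bases (range 0 to 48), against 7 CpG over 27025 mouse promoters. At least 10 CpG stood in 32 of the 38 (84.2%), against 43.9% of all promoters. Tdrd5, a germ granule protein gene, had the most with 48, and Nanos2, the gene of an RNA-binding protein of sperm stem cells, had 0. The letters CACGTG, which read the same on both strands, stood in 14 of 38 (36.8%), against 7.2% of all promoters. The letters GCGGGA, or TCCCGC for the other strand, stood in 14 of 38 (36.8%), against 20% of all promoters. Of the 11 piRNA pathway and germ granule genes with a promoter, 7 held CACGTG, among them Ddx4, Mael, Fkbp6 and Tdrd9. Such matches describe the letters only and are not evidence of binding.

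Library depth and composition bear on every value below. Heart libraries held 4.12 to 8.60 M (mega) counts and spleen libraries 4.36 to 9.87 M, of which 5642 to 14012 reads fell in the 46 windows. Gm10800, a window in repeat sequence, had a mean share of 19% ± 1.72 in the high fibre hearts (SD, n = 4), 33.8% ± 10.5 in the acetate hearts (n = 3) and 42.2% ± 5.79 in the control hearts (n = 4). The ratio of the upper quartile of window counts to their median, a measure of how unevenly the captured reads were spread, was 1.85 ± 0.0829 in high fibre heart, 2.29 ± 0.414 in acetate heart and 2.29 ± 0.13 in control heart. In spleen it was 4.62 ± 0.873 with high fibre, 4 ± 0.537 with acetate and 4.54 ± 0.763 on control (n = 4 each). Germline windows were high in the same libraries as this ratio. In each of the 6 groups the library with the highest ratio was also the one that held the highest value for the most genes. In heart these were high fibre replicate 1 (ratio 1.92, highest for 17 of 44 genes and for 25.8% of all windows with at least 100 reads), acetate replicate 1 (2.77, 38 genes, 41.8% of windows) and control replicate 1 (2.46, 28 genes, 29.5% of windows). In spleen they were high fibre replicate 1 (5.81, 28 genes, 28.3% of windows), acetate replicate 4 (4.62, 30 genes, 27.9% of windows) and control replicate 1 (5.62, 32 genes, 31.6% of windows). As a check of the tissues on the control diet, captured DNA at the starts of 12 heart muscle genes was lower in heart than in spleen for 9 and higher for 3. At 12 immune cell genes it was higher in heart for 7 and lower for 1. Of 14 tested housekeeping genes 6 were lower and 5 higher. Over all windows 32.7% were lower and 40% higher.

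Most germline windows were well captured in both tissues. On the control diet 44 of 46 lay above the median of all windows in heart and 42 of 46 in spleen. Their median percentile among all windows was 83.8 in heart and 91.1 in spleen. Above the 90th percentile lay 9 of them in heart and 27 in spleen. After TMM scaling within a tissue their median normalised read count (counts per M reads, CPM) was 27.0 in control heart, where all windows had 8.625, and 28.7 in control spleen, where all windows had 2.497. All but a few of the genes thus lay above the median of all windows. Such starts are known for methylation in body tissues, so the choice of genes made this level likely.

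The highest levels in control heart were those of Mei1, needed for meiotic DNA breaks, with 71.3 CPM, Tdrd6, a scaffold of germ granules, with 64.2 CPM, Spo11, the enzyme that cuts DNA in meiosis, with 61.5 CPM, and Tdrd1, a partner of Piwi proteins, with 59.7 CPM. In control spleen they were Tdrd6 with 73.6 CPM, Mei1 with 72.3 CPM, Spo11 with 62.1 CPM and Dazl, a germ cell RNA-binding protein, with 61.3 CPM. Neighbours in this order overlapped: Mei1 ran between 65.7 and 80.82 CPM over the 4 control heart libraries and Tdrd6 between 53.67 and 75.5 CPM.

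Smc1b and Piwil2 stood at the other end. Smc1b, a meiosis-specific cohesin subunit, had 0 to 2 reads in each heart library and 0 in each of the 12 spleen libraries. Its promoter is CpG-rich, with 29 CpG, and the gene Ribc2 starts 141 bases away on the opposite strand, so reads of that start would fall in the same window. Piwil2, a Piwi protein of the male germ line, had 0 to 5 reads per heart library and 0 to 2 per spleen library. In spleen Nanos3, which keeps primordial germ cells alive, and Syce2, a central element protein of the synaptonemal complex, were also below the median of all windows, with 0.869 ± 0.129 CPM and values between 0.6016 and 1.772 CPM in control spleen (n = 4).

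**Figure D1:**
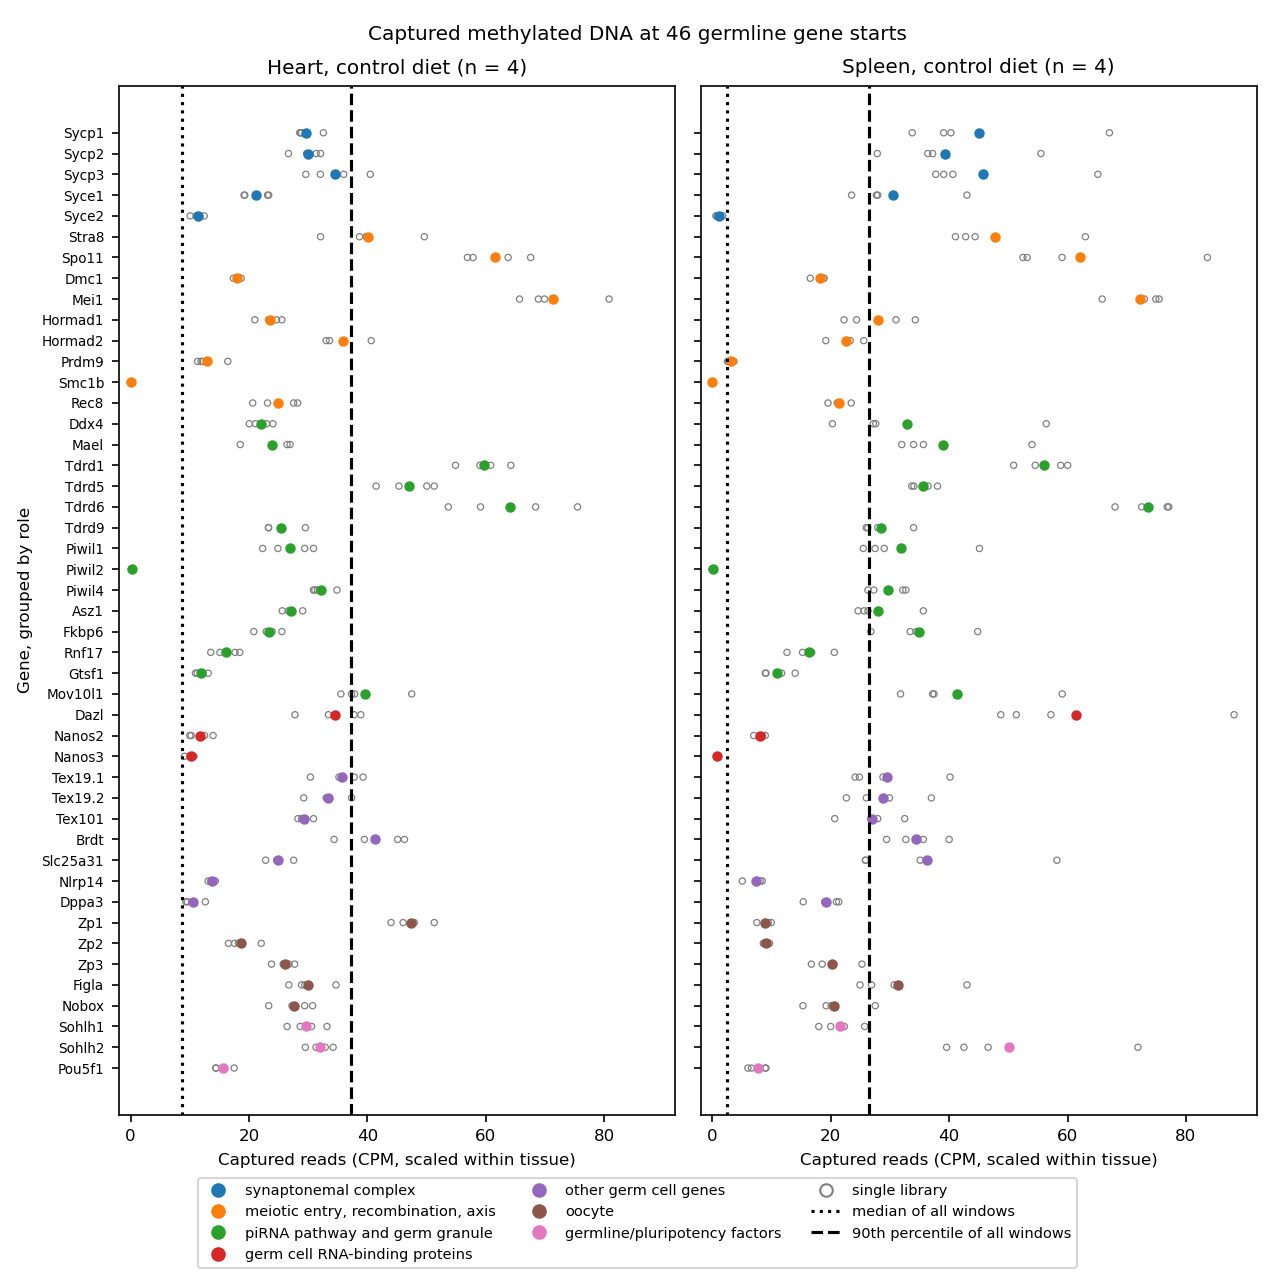
Captured reads (CPM, scaled within each tissue) at the starts of the 46 genes, grouped by role, in heart (left) and spleen (right) on the control diet. Open circles are the 4 libraries, filled circles their mean, and vertical lines the median and the 90th percentile of all windows: most genes lie to the right of the median line (44 of 46 in heart, 42 of 46 in spleen), and Smc1b and Piwil2 lie at 0.

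Among promoters of like CpG number the germline windows were also on the high side. Of 10020 windows whose RefSeq promoter had at least 10 CpG, 32 were germline genes, and 29 of these lay above the median of that class in control heart and 30 in control spleen. Their median was 28.47 CPM, against 14.79 CPM over the class, in heart, and 30.97 CPM, against 6.40 CPM, in spleen. In that class 0 of the 32 lay above the 90th percentile in heart and 6 in spleen. Across the 38 genes CpG number and log2(CPM + 1) had a Pearson r of -0.004 in heart and 0.168 in spleen. The genes share libraries and depth, so these coefficients are descriptions only.

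High fibre against control in heart asked whether the diet changed captured DNA at these genes. Of the 44 genes 18 fell and 1 rose at an adjusted p under 0.05 (edgeR quasi-likelihood test, Benjamini-Hochberg over 33562 windows). The share of all windows called was 26.2%, with 13.6% lower and 12.6% higher. The median log2 fold change of the 44 was -0.31, against 0.02 over all windows, and 36 of 44 were below 0. In 19 genes every high fibre library lay below every control library, and in 2 every one lay above, where 17.1% and 16.6% of all windows did so.

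Synaptonemal complex genes were led by Sycp3, an axial element protein of meiotic chromosomes (ENSMUSG00000020059, chromosome 10, 88459587 to 88473236). Sycp3 had 19.66, 21.55, 21.69 and 22.37 CPM in high fibre heart, 45.0, 30.02 and 24.26 CPM in acetate heart, and 40.49, 32.06, 36.0 and 29.6 CPM in control heart. All 4 high fibre libraries lay below every library of the other diets. The log2 fold change, high fibre over control, was -0.69 ± 0.15 (SE, adjusted p = 0.00662, edgeR). This call was lost with 1 surrogate variable, a hidden factor estimated from the libraries (-0.25, adjusted p = 0.601, edgeR). Sycp3 was the 1 of 5 genes in this role that passed. The other 4, Sycp1, Sycp2, Syce1 and Syce2, had log2 fold changes between -0.16 for Sycp2 and -0.35 for Sycp1, whose adjusted p was 0.0513.

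Meiotic entry, recombination and axis genes held 5 that fell among 8 tested. They were Stra8, the retinoic acid target that starts meiosis (log2 fold change -0.65), Mei1 (-0.54), the meiotic cohesin gene Rec8 (-0.41), the axis protein gene Hormad1 (-0.38) and Spo11 (-0.38). Dmc1, the meiotic strand exchange protein, had -0.19 and an adjusted p of 0.269. Hormad2 had 0.07 and Prdm9, which places recombination sites, 0.14, and neither passed.

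Of 13 tested piRNA pathway and germ granule genes 3 fell, with a median log2 fold change of -0.10 over the 13. Fkbp6, a co-chaperone of the piRNA pathway (ENSMUSG00000040013, chromosome 5, 135291704 to 135351809), had 15.29, 15.58, 14.41 and 13.77 CPM in high fibre heart and 23.9, 20.82, 25.56 and 22.92 CPM in control heart. The groups did not overlap, and the log2 fold change was -0.65 ± 0.16 (SE, adjusted p = 0.0108, edgeR). With 1 surrogate variable the Fkbp6 call was lost (-0.13, adjusted p = 0.857, edgeR). Piwil1, a Piwi protein of spermatids, and Mov10l1, the helicase that starts piRNA processing, fell by 0.47 each on the log2 scale. Ddx4 and Mael, both germ granule proteins, showed no call. Ddx4 had 22.57, 19.74, 21.83 and 21.51 CPM in high fibre heart and 24.05, 22.97, 21.11 and 20.05 CPM in control heart, with a log2 fold change of -0.05 ± 0.12 (adjusted p = 0.803, edgeR). Mael had 21.48, 22.46, 21.98 and 25.95 CPM in high fibre heart and 26.94, 23.96, 26.44 and 18.53 CPM in control heart, with -0.06 ± 0.14 (adjusted p = 0.761, edgeR). For both genes the groups overlapped.

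No germ cell RNA-binding protein gene passed among the 3 tested. Dazl had 22.75, 25.17, 33.39 and 26.24 CPM in high fibre heart, 57.82, 27.67 and 31.99 CPM in acetate heart, and 37.75, 27.77, 38.89 and 33.42 CPM in control heart. The high fibre and control libraries overlapped, and the log2 fold change was -0.35 ± 0.18 (SE, adjusted p = 0.142, edgeR). Nanos2 had -0.16 and Nanos3 -0.38 on the log2 scale.

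Of the 7 other germ cell genes 5 fell and 1 rose. Tex19.1, which restrains transposons in germ cells, and its paralogue Tex19.2, both on chromosome 11, were among them. Tex19.1 had 26.58, 23.36, 25.4 and 22.51 CPM in high fibre heart and 39.27, 35.2, 37.78 and 30.37 CPM in control heart, with no overlap and a log2 fold change of -0.54 ± 0.13 (adjusted p = 0.00859, edgeR). Tex19.2 had 21.84, 18.29, 23.4 and 22.23 CPM in high fibre heart and 33.64, 29.25, 37.33 and 33.04 CPM in control heart, with no overlap and -0.62 ± 0.14 (adjusted p = 0.00745, edgeR). Both calls were lost with 1 surrogate variable (Tex19.1 -0.23, adjusted p = 0.611, and Tex19.2 -0.29, adjusted p = 0.525, edgeR). The 2 genes are alike in sequence and the sources used here do not give how reads with several alignments were counted, so reads of one may stand in the other. Tex101, a surface protein of sperm cells, had 20.02, 22.1, 23.54 and 20.79 CPM in high fibre heart and 30.9, 28.92, 28.89 and 28.27 CPM in control heart. Its groups did not overlap, and the log2 fold change was -0.43 ± 0.12 (adjusted p = 0.0162, edgeR). This call was lost without heart control replicate 1 and without heart high fibre replicate 4, and also with cyclic loess, a scaling that follows abundance (-0.23, adjusted p = 0.115), and with 1 surrogate variable, a hidden factor estimated from the libraries (-0.19, adjusted p = 0.711). Dppa3, which guards the maternal genome's methylation in the zygote, fell by 0.51 and Brdt, a testis chromatin reader, by 0.37 on the log2 scale. Nlrp14, an oocyte and testis gene, was the 1 gene that rose, with a log2 fold change of 0.50 ± 0.15 (adjusted p = 0.0226, edgeR).

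Among 5 oocyte genes Zp3 and Zp1, which encode proteins of the egg coat, fell. Zp3 (chromosome 5, 135980105 to 135988624) had 17.66, 13.4, 16.7 and 16.35 CPM in high fibre heart and 27.7, 23.8, 25.78 and 26.74 CPM in control heart, a log2 fold change of -0.68 ± 0.15 (adjusted p = 0.00635, edgeR). Zp1 (chromosome 19, 10914296 to 10920601) had 35.86, 33.69, 33.39 and 35.85 CPM in high fibre heart and 51.29, 47.93, 44 and 46.03 CPM in control heart, a log2 fold change of -0.45 ± 0.11 (adjusted p = 0.00994, edgeR). Neither gene had overlapping groups. The Zp1 call was lost with cyclic loess (-0.21, adjusted p = 0.0943) and with 1 surrogate variable (-0.26, adjusted p = 0.485, edgeR). The Zp3 call was lost with 1 surrogate variable (-0.30, adjusted p = 0.569, edgeR). Their partner Zp2 had 0.14, the oocyte regulator Figla -0.12 and Nobox 0.25, and none of these passed. Of the 3 transcription factor genes Pou5f1, the pluripotency factor Oct4, fell by 0.45 and Sohlh2, a regulator of germ cell differentiation, by 0.39, while Sohlh1 had -0.33 and an adjusted p of 0.0769.

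**Figure D2:**
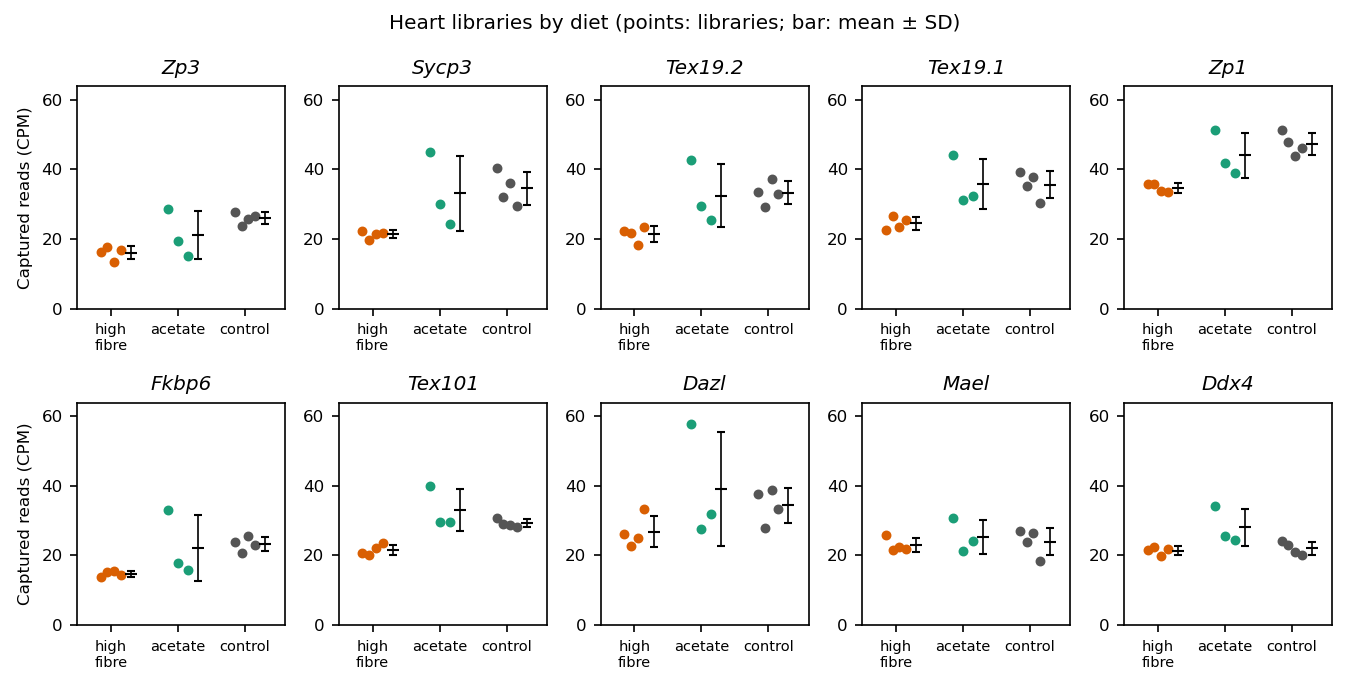
Captured reads (CPM) of 10 germline genes in each heart library by diet, with mean ± SD beside the points (n = 4 high fibre, 3 acetate, 4 control). High fibre libraries lie below all control libraries for Zp3, Sycp3, Tex19.2, Tex19.1, Zp1, Fkbp6 and Tex101 and overlap them for Dazl, Mael and Ddx4, and 1 acetate library, replicate 1, is the highest in its group for all 10.

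**Figure D3:**
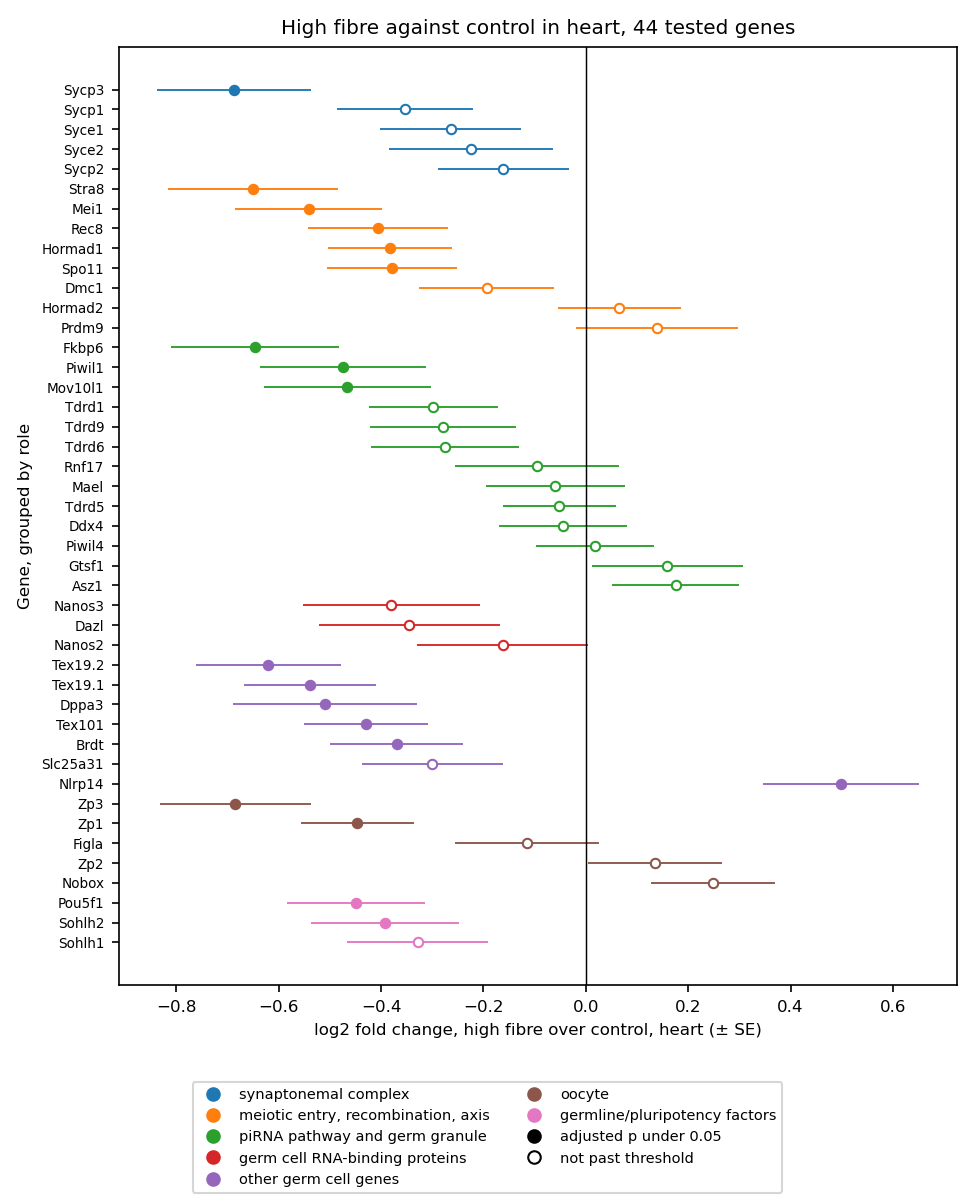
Log2 fold change, high fibre over control, in heart for the 44 tested genes, grouped and coloured by role, with standard errors. Filled symbols passed an adjusted p of 0.05 (18 below 0 and Nlrp14 above), and open symbols did not.

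The change in heart moved with abundance over all windows. With windows split by abundance into 10 equal classes, the median log2 fold change was 0.54 in the lowest class and -0.27 in the highest. Of the 44 germline genes 34 lay in the 3 highest classes. There 16 of 34 (47.1%) fell, with a median of -0.35, against 34% of 10069 windows and a median of -0.24. With cyclic loess 13 of 44 passed, 10 lower and 3 higher, while 4287 of all windows passed, 2170 lower and 2117 higher. With 1 surrogate variable in the fit 0 of the 44 passed, with a median of -0.0043, and 42 of all windows. With library totals in place of TMM the median of all windows moved to 0.69, the median of the 44 to 0.37, and 25 rose and 0 fell. Of all windows 24545 then rose and 14 fell. Left-out libraries moved the count between 6, without heart control replicate 1, and 26, without heart acetate replicate 1. It was also 8 without heart high fibre replicate 4, 10 without heart control replicate 3, and 11 without heart high fibre replicate 2 or 3. The part of library composition in these changes was not tested.

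**Figure D4:**
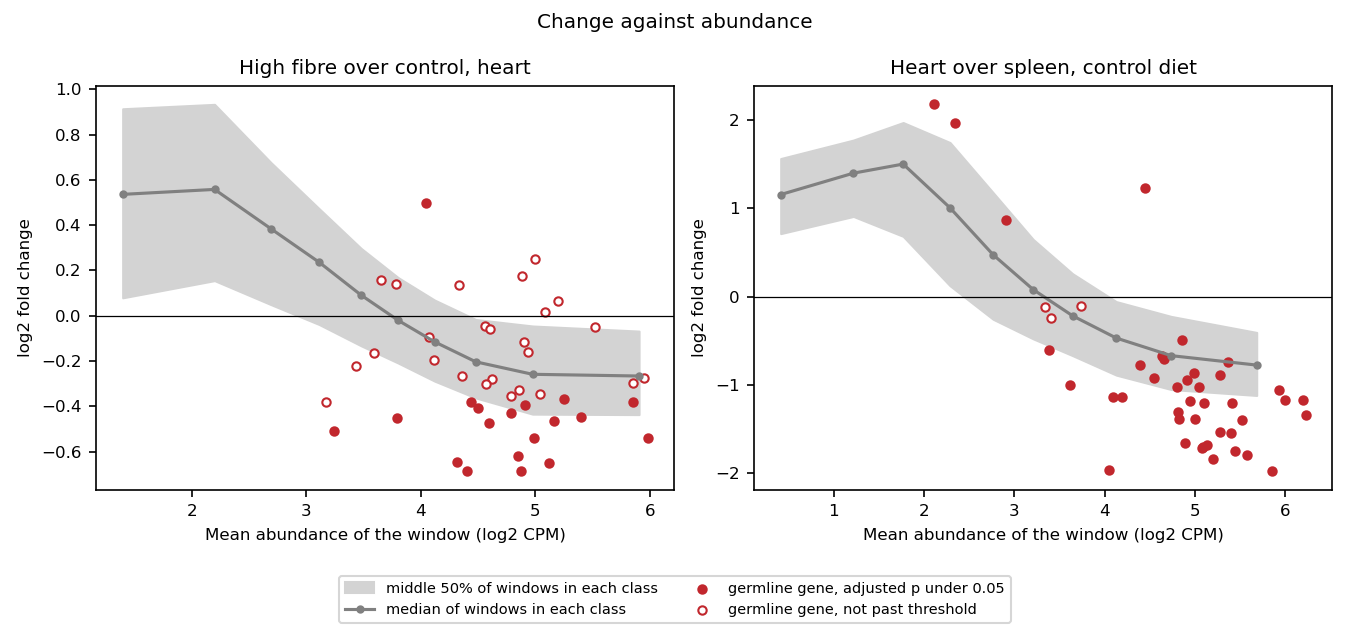
Log2 fold change against mean abundance (log2 CPM) for high fibre over control in heart (left) and heart over spleen on the control diet (right). Red circles are germline genes (filled: adjusted p under 0.05), the grey line joins the medians of windows in 10 classes of abundance and the band holds their middle 50%: in heart the line stands at 0.54 in the lowest class and at -0.27 in the highest.

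Acetate against control in heart gave no call. By edgeR 0 of 44 germline genes and 0 of 33562 windows (0%) passed, with 4 genes and 840 windows at an unadjusted p under 0.05, and DESeq2 gave 0 as well. The median log2 fold change of the 44 was 0.00, against 0.02 over all windows. The smallest p belonged to Ddx4, with 34.27, 25.5 and 24.42 CPM in acetate heart and 24.05, 22.97, 21.11 and 20.05 CPM in control heart. In Ddx4 and Nobox the acetate libraries lay above every control library, and in 1 gene below, as in 1.49% and 1.6% of windows. The Ddx4 log2 fold change was 0.31 ± 0.14 (unadjusted p = 0.0291, adjusted p = 1, edgeR). Nobox had 0.30 ± 0.13 and Zp3 -0.35 ± 0.16. Sycp3 (-0.10), Mael (0.06), Dazl (0.15), Tex19.1 (-0.01) and Tex101 (0.16) had log2 fold changes nearer to 0. Without heart acetate replicate 1, the library whose germline values were highest, 1 gene passed, Zp3, with a log2 fold change of -0.59, among 684 windows that passed in that fit.

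High fibre against acetate in heart gave 1 call among 44, against 1.38% of windows (462 of 33562), of which 1.19% were lower. Tex101 was lower, with 20.02, 22.1, 23.54 and 20.79 CPM in high fibre heart and 39.94, 29.66 and 29.67 CPM in acetate heart, which did not overlap. Its log2 fold change was -0.59 ± 0.13 (adjusted p = 0.0488, edgeR). Sycp3 had -0.59 ± 0.17 (adjusted p = 0.0549, edgeR) and Tex19.1 -0.53 ± 0.14 (adjusted p = 0.0508, edgeR), both just short of a call, and Ddx4 (-0.36), Dazl (-0.49) and Mael (-0.12) had larger p. The median of the 44 was -0.35, against 0.01 over all windows, and it was 0.11 with library totals and -0.04 with 1 surrogate variable. In 15 genes all high fibre libraries lay below all acetate libraries, as in 11.1% of windows, and in 0 above, as in 10.3%. DESeq2 gave 12 calls. The Tex101 call lay close to the threshold and was lost in 8 of 11 fits with a library left out. Its log2 fold change stayed between -0.66 and -0.45 in these fits. The count of genes called ran from 0 to 17, with 0 without acetate replicate 1, 15 without acetate replicate 2 and 17 without acetate replicate 3. This comparison shares its high fibre libraries with the one against control.

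In spleen no germline gene passed in any diet comparison. For high fibre against control, acetate against control and high fibre against acetate the counts by edgeR were 0 of 44 each, against 0% of 24871 windows. The genes with an unadjusted p under 0.05 numbered 0, 1 and 0, the windows 502, 872 and 823, and DESeq2 gave 0, 1 and 0 windows and 0 genes. The medians of the 44 were 0.03, 0.03 and 0.01. Sycp3 shows the spread behind this: it had 53.85, 39.34, 35.67 and 40.7 CPM in high fibre spleen, 43.07, 33.23, 37.89 and 58.1 CPM in acetate spleen, and 65.12, 39.08, 40.63 and 37.73 CPM in control spleen. All 3 groups overlapped. For high fibre against control 0 genes had groups that did not overlap (windows: 0.748% higher, 0.897% lower). For acetate against control it was 1 gene, higher (windows: 1.3% higher, 1.37% lower), and for high fibre against acetate 1, higher (windows: 1.17% higher, 1.21% lower). The log2 fold change of Sycp3, high fibre over control, was -0.10 ± 0.17.

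For high fibre over control in spleen, log2 fold changes were 0.08 ± 0.17 for Dazl, 0.10 ± 0.22 for Ddx4, 0.03 ± 0.16 for Mael, -0.13 ± 0.19 for Tex19.1 and -0.09 ± 0.13 for Tex101. The smallest p for high fibre over control was that of Zp1, 0.36 ± 0.18 (unadjusted p = 0.0597, adjusted p = 1, edgeR), followed by Fkbp6 and Nanos2. For acetate over control it was Nanos3, with 1.094, 2.446, 2.706 and 1.67 CPM in acetate spleen and 0.9024, 0.689, 0.9936 and 0.8913 CPM in control spleen, a log2 fold change of 0.95 ± 0.44 (unadjusted p = 0.0401, adjusted p = 0.999, edgeR). Those groups did not overlap, but the level is near that of a few reads. For high fibre over acetate it was Zp2, 0.28 ± 0.15 (unadjusted p = 0.0763, adjusted p = 1, edgeR).

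Whether the high fibre effect differed between tissues was tested in 1 fit over both. By edgeR 0 of 44 genes passed, against 0.0559% of windows (19 of 33982, with 0.0383% lower and 0.0177% higher), with 12 genes at an unadjusted p under 0.05, and DESeq2 gave 1 gene, Zp1 (-0.75, adjusted p = 0.037). The difference, heart effect minus spleen effect, was below 0 for 38 of 44, with a median of -0.33. That median was 0.32 with library totals and 0.05 with 1 surrogate variable. The smallest p belonged to Zp1 (-0.80 ± 0.20, adjusted p = 0.106, edgeR), Fkbp6 (-0.84 ± 0.27, adjusted p = 0.169, edgeR) and Zp3 (-0.68 ± 0.24, adjusted p = 0.189, edgeR). Without spleen control replicate 1 the count was 3. For the acetate effect 0 of 44 genes and 0 windows (0%) passed by edgeR and by DESeq2, with 1 gene, Nanos3 (-1.35 ± 0.45), at an unadjusted p under 0.05.

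Heart against spleen on the control diet gave the most calls among these genes. Captured DNA was lower in heart for 37 of 44 genes and higher for 4 (edgeR, adjusted p under 0.05), where 32.7% of windows were lower and 40% higher, and 72.7% called in all. The median log2 fold change, heart over spleen, was -1.14, against 0.19 over all windows. In 37 genes every heart library lay below every spleen library, as in 30.8% of windows, and in 4 every one lay above, as in 36.2%. CPM for this comparison were scaled over both tissues together and differ from those above.

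Dppa3 had the smallest p, with 8.364, 6.344, 6.185 and 6.942 CPM in control heart and 33.08, 21.96, 28.03 and 30.31 CPM in control spleen. Its log2 fold change was -1.96 ± 0.15 (adjusted p = 2.6e-12, edgeR). Mael had 17.84, 15.86, 17.53 and 12.24 CPM in control heart and 83.64, 45.75, 50.18 and 51.6 CPM in control spleen, -1.84 ± 0.18 (adjusted p = 3.03e-10, edgeR). Spleen control replicate 1 was the highest for both genes. Without it the log2 fold changes were -1.88 for Dppa3 and -1.61 for Mael.

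Dazl showed the lowest value of all 44, -1.98 ± 0.22 (adjusted p = 1.48e-09, edgeR), with 24.99, 18.38, 25.77 and 22.09 CPM in control heart and 136.5, 69.68, 75.77 and 82.77 CPM in control spleen. Sohlh2 had 19.55, 22.64, 21.8 and 20.7 CPM in control heart and 111.4, 56.59, 68.76 and 61.49 CPM in control spleen, -1.80 ± 0.19. Tdrd6 had 49.98, 45.28, 39.17 and 35.47 CPM in control heart and 119.1, 97.27, 107.0 and 111.6 CPM in control spleen, -1.35 ± 0.15. None of the 3 genes had overlapping groups, although spleen control replicate 1 was again far above the other spleen libraries for Dazl and Sohlh2.

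Sycp3, Ddx4 and Fkbp6 had log2 fold changes of -1.55 ± 0.20, -1.71 ± 0.23 and -1.72 ± 0.19 (heart over spleen). Ddx4 had 15.92, 15.2, 13.99 and 13.25 CPM in control heart and 87.37, 29.0, 40.73 and 39.34 CPM in control spleen. Tex101 (-1.02 ± 0.14) and Tex19.1 (-0.87 ± 0.20, adjusted p = 0.000211, edgeR) were nearer to 0, though no library of Tex19.1 in heart, at 20.07 to 26.0 CPM, reached the lowest spleen library at 34.49 CPM. The Tex19.1 call was lost with cyclic loess (-0.23, adjusted p = 0.185), with 1 surrogate variable (-0.23, adjusted p = 0.227) and with library totals (0.04, adjusted p = 0.843). The Tex101 call was lost with library totals (-0.11, adjusted p = 0.52).

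By role the tissue difference was lower in heart for 13 of 13 piRNA pathway and germ granule genes (median log2 fold change -1.21), 4 of 5 synaptonemal complex genes (-1.55) and 7 of 8 meiotic entry, recombination and axis genes (-1.15). It was lower for 6 of 7 other germ cell genes, 3 of 5 oocyte genes, 2 of 3 RNA-binding protein genes and 2 of 3 transcription factor genes. Higher in heart were Nanos3 (2.18), Syce2 (1.96), Zp1 (1.23) and Prdm9 (0.86). Zp1 had 33.96, 31.72, 29.16 and 30.42 CPM in control heart and 11.65, 13.51, 13.2 and 14.4 CPM in control spleen. Nanos3 had 7.054, 6.891, 6.038 and 7.069 CPM in control heart and 1.398, 0.9854, 1.466 and 1.29 CPM in control spleen, without overlap. Nlrp14, Zp2 and Pou5f1 did not pass.

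Here too the change moved with abundance. In the 3 highest of 10 abundance classes 35 of 36 germline genes (97.2%) were lower in heart with a median of -1.20, against 71% of 10195 windows and -0.65. Counted from the lowest class, Nanos3 and Syce2 lay in class 4 and Prdm9 in class 5, all higher in heart. Windows of these classes had medians of 1.00 and 0.47, and 2137 and 1719 of 3398 were higher. Zp1, also higher, lay in class 9, where the windows' median was -0.67. All 41 calls were kept with DESeq2, with no filter on low counts and in each fit with a library left out; cyclic loess kept 34 and 1 surrogate variable kept 36. With library totals 24 passed, 16 lower and 8 higher. The median of all windows moved to 1.02 and that of the genes to -0.24. Such a rescaling moves all windows by about the same amount, so the gap between genes and windows could hardly change and is no check. Directions of single genes did change.

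By CpG number, all 11 tested genes with at least 20 CpG in the promoter were lower in heart, with a median of -1.68, where windows of that class had a median of -0.06 and 38.4% lower. In the 20 genes with 10 to 19 CpG 18 were lower, with a median of -1.08, where windows of that class had a median of -0.13 and 40.9% lower. These classes were not matched for abundance, with which the change moved. In control spleen windows with at least 20 CpG had a median of 6.24 CPM, and the genes 35.9 CPM. With 10 to 19 CpG these medians were 6.70 and 28.3 CPM. Across 37 genes CpG number and the log2 fold change had a Pearson r of -0.313 and a Spearman rho of -0.451, as a description, since genes share libraries. Nanos3, with 3 CpG, was higher in heart, and Syce2, with 19, was an exception in its class.

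**Figure D5:**
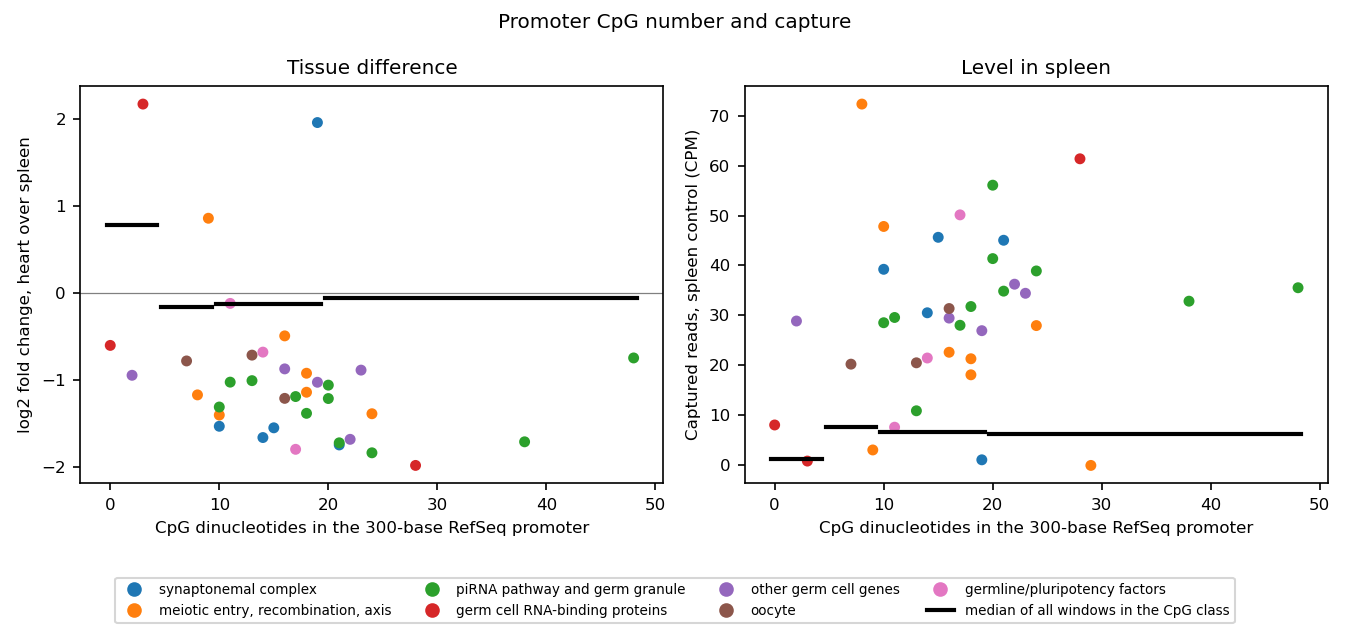
CpG dinucleotides in the 300-base RefSeq promoter against the log2 fold change of heart over spleen on the control diet (left, 37 genes) and against captured reads in control spleen (right, CPM, 38 genes), coloured by role. Black lines give the median of all windows in the CpG class: genes with at least 20 CpG lie below 0 in all 11 cases on the left, where the class median is -0.06. The classes are not matched for abundance.

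Other germline genes, a second list of 40 of which 35 were found, were compared with the set. In heart, high fibre against control, 3 of 29 tested fell, Msh5 (-0.49), Syce3 (-0.54) and Npm2 (-0.34), and 2 rose, Hfm1 (0.52) and Dazap1 (0.96), with a median of -0.06, where 13.6% of all windows fell and 12.6% rose. Msh5 and Hfm1 act in meiotic crossover formation. In heart against spleen 14 of 30 were lower and 9 higher with a median of -0.20, beside 32.7% lower and 40% higher of all windows. The genes farthest from 0 were Taf7l, a testis transcription factor subunit (-2.38), Rpl10l, a testis ribosomal protein (-1.97), Hfm1 (2.18) and Mnd1, a meiotic recombination factor (1.99). Genes that act in silencing the germline programme were also read. In high fibre heart 6 of 17 were lower than on control, led by Ehmt2, a histone methyltransferase gene (-0.95), L3mbtl2 (-0.53) and Uhrf1, which guides maintenance methylation (-0.60), and 2 were higher, Atf7ip (0.36) and Mga (0.32), beside 13.6% lower and 12.6% higher of all windows. Heart against spleen gave 7 lower and 4 higher of 17, beside 32.7% lower and 40% higher. These values are captured DNA at the genes' starts, not their expression.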

How the data were processed

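Read counts per 3 kb window at transcription start sites were deposited by the authors, in 1 table per tissue, without normalization or pooling. Per the submitters' processing notes the build was GRCm38 and the tools edgeR 3.16.5, featureCounts 1.5.1, BWA 0.7.10 and bcl2fastq 2.19.1.403. How windows are centred and how duplicate or multiply aligned reads were counted is not given in the sources used here. All values were whole numbers, and 0 pairs of libraries were identical.

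Windows were tested with edgeR 4.0.16 (R 4.3.3): TMM factors, filterByExpr at a minimum count of 10, quasi-likelihood test, prior count 2, Benjamini-Hochberg adjustment over all tested windows at 0.05. The 3 diets of a tissue shared a fit, and comparisons across tissues used 1 fit over 6 groups. The scripts were tested on simulated counts with known changes. These counts held no shift in library composition between groups and no trend with abundance, so they are no check on either. Standard errors are the log2 fold change divided by the root of the F statistic. Alternatives used DESeq2 1.42.0, no filter, library totals, limma 3.58.1 with cyclic loess, sva 3.50.0 with 1 surrogate variable, a replicate block, and each library left out. Heart and spleen titles share numbers, but it is not stated that these mark the same mouse. Deviations of same-numbered libraries correlated above 0.1 in some pairs of each comparison, never in all. For control heart and spleen it was 2 of 4 same-numbered pairs and 1 of 12 others. For acetate heart and spleen it was 1 of 3 and 3 of 9. Between diets of a tissue the title numbers differ, so there the replicate number was matched. By it, control and high fibre spleen had 3 of 4 and 1 of 12. Numbers were not used as pairs, so tests across tissues treat libraries as independent.

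Promoters and gene positions came from RefSeq tables of GRCm38.p6, matched by symbol, with the first listed promoter of each gene. Values in every library are given for Dazl, Ddx4, Mael, Sycp3, Tex19.1 and Tex101 and for the 6 genes of smallest p past the threshold in a comparison (3 where none passed); a few more were named after their values were seen. The members and lists were chosen with earlier results of these data known. Depth limits precision: the median count per window was 26 to 70 in heart libraries and 13 to 29 in spleen libraries.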

Additional observations from a re-analysis of the deposited data

Results flagged for a closer look

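In spleen on the control diet, replicate 1 stood far from the other 3 libraries at Mael and Sycp3. Mael had 53.99 CPM in this library, where the others had 31.99, 34.0 and 35.65 CPM. Sycp3 had 65.12 CPM, where the others had 37.73, 39.08 and 40.63 CPM. In both the gap to the nearest library was past Dixon's critical value for 4 libraries. The 17 genes with described values were looked at in 85 groups of 4 libraries, 2 of which met this limit, and chance alone flags about 1 in 20 groups. The same library had the highest ratio of upper quartile to median window count on the control diet in spleen (5.62), and the part of that ratio in these values was not tested.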

How the results depend on the processing

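Over all results and alternatives, 2287 values were labelled unchanged and 170 changed. A gene was unchanged if it kept its direction and side of the threshold. A median or a count was unchanged if it moved by less than the limit set. Values near 0 that no fit called may differ in sign. Counts were compared by their total, whatever the direction. The count for high fibre against control in heart with library totals was therefore labelled unchanged. All its genes rose, where 18 fell and 1 rose under TMM. The counts of genes called whose total changed are these. For high fibre against control in heart, genes called numbered 0 with 1 surrogate variable and 6 to 26 with a library left out. For high fibre against acetate in heart they numbered 12 with DESeq2, 4 with no filter, 2 with library totals, 0 with cyclic loess, 0 with 1 surrogate variable and 0 to 17 with a library left out; the 2 with library totals were both higher and Tex101 was not among them, while those with DESeq2 and with no filter were lower. For the tissue difference in the high fibre effect they numbered 1 with DESeq2, 6 with library totals and 0 to 3 with a library left out; the 1 was lower in heart and the 6 were higher, and the median over the genes was 0.3167 with library totals and 0.0502 with 1 surrogate variable. For acetate against control they numbered 0 to 1 in heart with a library left out and 1 in spleen with 1 surrogate variable. For heart against spleen they numbered 24 with library totals.

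Library totals reversed values that TMM gave below 0. The median of all windows moved too, to 0.69 for high fibre and 0.26 for acetate against control in heart. The cause of this shift was not tested. In high fibre heart against control the median over the genes became 0.3742 and the genes 0.3536 (Dazl), 0.6408 (Ddx4), 0.0454 (Fkbp6), 0.6389 (Mael), 0.0111 (Sycp3), 0.2573 (Tex101), 0.1557 (Tex19.1), 0.0733 (Tex19.2), 0.2427 (Zp1) and 0.0004 (Zp3), of which Dazl, Ddx4 and Mael passed. High fibre against acetate had a median of 0.1091, and Tex19.1 had 0.0407 in heart against spleen.

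The replicate block, with numbers that were not shown to pair libraries, gave 9 genes for high fibre against acetate, 4 for the tissue difference in the high fibre effect and 22 for high fibre against control. The cause of these changes was not tested. Over all windows, counts for high fibre against control in heart were 24559 with library totals, 4287 with cyclic loess, 42 with 1 surrogate variable and 2495 to 14336 with a library left out. For high fibre against acetate they were 2516 with DESeq2, 1256 with no filter, 1855 with library totals, 19 with 1 surrogate variable, 2284 with the block and 0 to 4536 with a library left out. For the tissue difference in the high fibre effect they were 110, 6363, 10 and 980 with DESeq2, library totals, 1 surrogate variable and the block, and 0 to 602 with a library left out. Depth limits windows of few reads, such as Nanos3 in spleen, Smc1b and Piwil2.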
